A study of Mus musculus with 14 samples.

Results

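The protein tyrosine phosphatases and dual-specificity phosphatases examined here were the probes whose single gene symbol in the platform's probe-gene table starts with Ptpr, Ptpn, Ptp4a or Dusp. There were 42 such probes, for 40 genes, among 7680 probes in all. Of these, 18 probes were for receptor-type genes (16 genes), 15 for non-receptor genes, 3 for the Ptp4a genes and 6 for Dusp genes. Ptprd had 3 probes and each other gene 1. The rule used symbols only and no measured value.

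Universal Mouse Reference RNA is a bought reference in which the RNA of several mouse cell lines is mixed, and the series title asks which genes single lines bring to it. Total RNA of 11 cell lines was labelled with Cy5 and hybridised against that pool in Cy3 on 14 two-colour arrays. Pairs of arrays were made for mammary tumor, fibroblast and myeloma. The liver, macrophage, testis, myoblast, embryo fibroblast, skin, T-cell lymphoma and kidney lines had 1 array, so their own values have no replicate check. Titles call the samples cell lines, while an annotation field calls them primary tissue. On mammary tumor array 1 the label of the pool carries the further letters MRR. The sources used here do not give the names of the lines, their strain or their culture, nor whether paired arrays hold RNA of separate cultures. The p-values of single lines thus measure only a spread between arrays that may be technical, and those of groups of lines the spread between lines. A value is the log2 ratio of line over pool, so that 0 is the level of the pool and each unit is a doubling. Base 2 and this direction are not stated in the labels and were assumed, so every fold rests on them. Each value averages a whole culture, so fewer expressing cells and less RNA per cell cannot be told apart.

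Protein tyrosine phosphatases remove phosphate from tyrosine residues and so oppose tyrosine kinases, although CD45 and others also switch on kinases of the Src family by removing an inhibitory phosphate. Receptor-type members cross the plasma membrane, and several carry the ectodomains of adhesion molecules and sit at cell-cell contacts. Non-receptor members are set apart by the modules that place them, such as SH2, FERM or proline-rich PEST regions. The dual-specificity MAP kinase phosphatases act on both the tyrosine and the threonine of the activation loop of MAP kinases.

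Marker genes followed the labels for blood and muscle cells but not for organs or fibroblasts. Leukocyte markers (7 genes, none of them a phosphatase) had a median log2 ratio of 1.59, 0.90 and 0.47 in the macrophage, T-cell lymphoma and myeloma lines and between -3.67 and -1.71 in the other 8. Macrophage, T cell, B and plasma cell, and muscle markers peaked in the line of that name. Liver, kidney tubule, testis and skin markers did not peak in the lines named for those organs, and the 8 epithelial genes were highest in the myeloma line (1.48) and at -1.52 in the mammary tumor line. Fibroblast and matrix markers were highest in the testis line (0.79) and at 0.16, -0.27 and -1.17 in the myoblast, fibroblast and embryo fibroblast lines, so the grouping of lines as mesenchymal or organ-named rests on their labels alone. Array medians ran from -0.51 (embryo fibroblast) to 0.13 (skin). Between arrays of 1 line the probes of the phosphatase genes differed by a median of 0.29 (mammary tumor), 0.62 (fibroblast) and 0.67 (myeloma) on the log2 scale.

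The phosphatase probes varied over lines with a median range of 2.75 on the log2 scale for the 37 probes with a value in every line, against 2.04 for all 7423 such features. A range over 4 was seen for 8 of the 37 (21.6%) and for 10.7% of all features. Receptor-type probes had the widest spread, with a median range of 3.35, against 2.68 for non-receptor, 2.25 for Dusp and 1.71 for Ptp4a probes. The widest single ranges were those of Ptprc (7.67), Ptpro (7.11), Ptprk (5.98), Ptpn18 (5.83) and the Ptprd probe 5207 (5.75). The narrowest was that of Dusp14 (0.89), an atypical dual-specificity phosphatase.

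**Figure D1:**
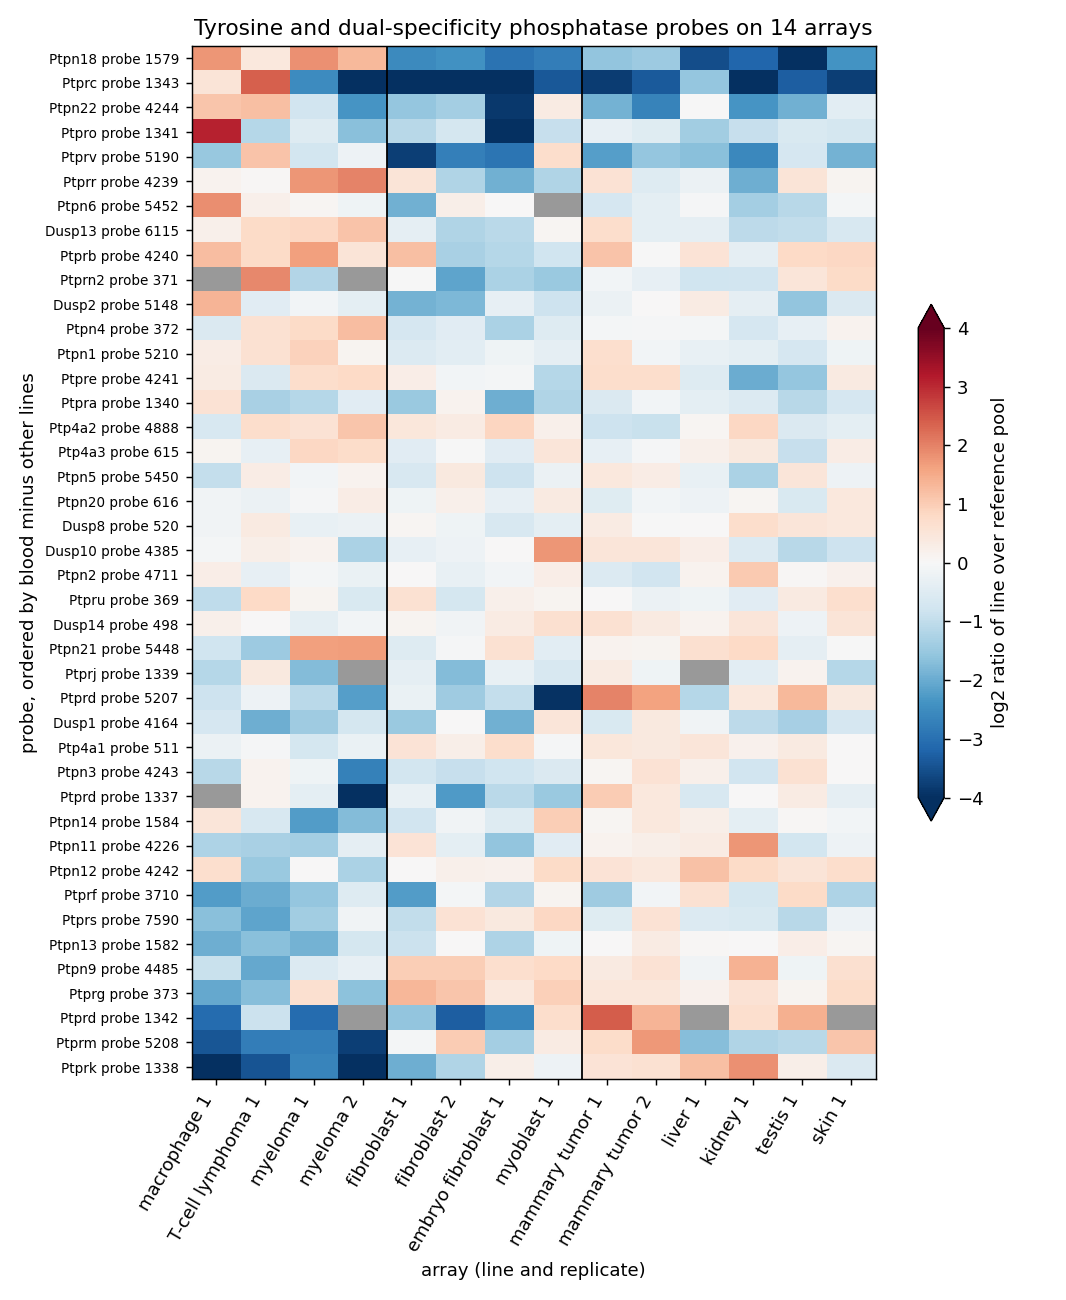
Log2 ratio of line over pool (colour, from -4 to 4, values beyond that at the end colours) for the 42 phosphatase probes (rows) on 14 arrays (columns), ordered by the mean of the blood-cell lines minus the mean of the other lines. Grey cells are empty, and black lines part the blood-cell, mesenchymal and organ-named lines. Ptpn18 and Ptprc stand at the top and Ptprm and Ptprk at the bottom.

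Blood-cell lines were compared with the other lines with the line as replicate, 3 line means (macrophage, T-cell lymphoma, myeloma) against 8. Ptpn18, a PEST-type phosphatase of blood-forming cells, was higher in the blood-cell lines. The adhesion receptors Ptprk and Ptprm, the carbonic anhydrase-like receptor Ptprg, the FERM and PDZ protein Ptpn13 and the Sec14-domain phosphatase Ptpn9 were lower. Of 37 tested probes 1 was higher and 5 were lower at a limma adjusted p under 0.05, against 3.22% of all 7423 features called (0.997% higher and 2.22% lower). The median difference over the 37 was -0.10, against 0.11 over all features.

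Ptpn18 had log2 ratios of 1.77 in macrophage, 0.43 in T-cell lymphoma and 1.83 and 1.29 on the myeloma arrays. On the mammary tumor arrays it was at -1.56 and -1.47, and in the other 7 lines between -4.06 (testis) and -2.38 (skin). No blood-cell array overlapped any other array. The difference was 4.11 ± 0.48 (SE, 17.3-fold, limma adjusted p = 0.000593). The labels name no batch, and image numbers are their only sign of one. Arrays were therefore put into 5 runs here, a new run starting where the image number rose by more than 50. The difference was 3.32 within run 3 (1 blood-cell line against 3 others) and 5.002 within run 4 (2 against 3). Ptpn18 was called in each of 17 other settings. With equal parts of all lines in the pool, the macrophage line would have given 38.0%, the myeloma line 33.0% and the T-cell lymphoma line 15.0% of the summed Ptpn18 ratio. This rests on the assumed direction, and with it turned the testis line would hold the largest share, 24.9%.

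Ptprk and Ptprm, receptors with a MAM domain that bind the same molecule on the next cell, were low in all 3 blood-cell lines. Ptprk was at -4.16 in macrophage, -3.45 in T-cell lymphoma and -2.63 and -4.78 on the myeloma arrays. In the other lines it ran from -1.94 (fibroblast array 1) to 1.82 (kidney), so that the groups did not overlap. The difference was -3.98 ± 0.56 (15.8-fold, limma adjusted p = 0.00207), with -3.48 within run 3 and -4.01 within run 4. Ptprm was at -3.43 in macrophage, -2.77 in T-cell lymphoma and -2.73 and -3.76 on the myeloma arrays, against -1.71 (liver) to 1.74 (mammary tumor array 2) elsewhere. Its difference was -2.86 ± 0.63 (adjusted p = 0.0271). The call of Ptprm ended without any 1 of the 3 blood-cell lines (adjusted p = 0.0809 without macrophage, 0.0729 without myeloma and 0.0673 without T-cell lymphoma), with quantile normalization (0.0892) and when the image run entered the fit as a fixed term (0.0617). Ptpru, the third receptor of this kind on the array, did not pass the test (-0.22 ± 0.37, adjusted p = 0.784).

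The pair split the lines that are not blood cells in different ways. Ptprk was above the pool in the kidney (1.82), liver (1.19), mammary tumor (0.55 and 0.61), testis (0.24) and embryo fibroblast (0.22) lines and at -1.94 and -1.20 on the fibroblast arrays. Ptprm was at 0.74 and 1.74 in the mammary tumor line, 1.11 in the skin line and -0.08 and 1.03 on the fibroblast arrays, and at -1.71 in liver, -1.19 in kidney and -1.12 in testis. The kidney and liver lines were thus the highest for Ptprk and among the lowest of these lines for Ptprm. Neither gene was called in any line outside the blood cells. The nearest was Ptprm in the mammary tumor line (2.53, limma adjusted p = 0.0584), which was called with quantile normalization.

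Ptprg was at -2.06 in macrophage, -1.70 in T-cell lymphoma and 0.64 and -1.65 on the myeloma arrays. All other arrays lay between 0.12 (testis) and 1.33 (fibroblast array 1), so myeloma array 1 alone overlapped them. The difference was -2.01 ± 0.36 (limma adjusted p = 0.0101), and without myeloma array 2 the adjusted p was 0.0650. Ptpn13, which binds membrane proteins through PDZ domains, was at -1.94, -1.66, -1.88 and -0.69 on the macrophage, T-cell lymphoma and 2 myeloma arrays, against -1.23 (embryo fibroblast) to 0.32 (mammary tumor array 2). Its difference was -1.47 ± 0.34 (adjusted p = 0.0322) and its call ended in 7 of 17 other settings, among them the loss of any 1 blood-cell line. Ptpn9 was at -2.04 in T-cell lymphoma, -0.88 in macrophage and -0.54 and -0.33 on the myeloma arrays, against -0.18 (testis) to 1.40 (kidney) elsewhere. It differed by -1.69 ± 0.405 (adjusted p = 0.0385) and ended in 5 of 17 settings (adjusted p = 0.198 without the T-cell lymphoma line). Ptprk, like Ptpn18, was called in each of the 17.

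**Figure D2:**
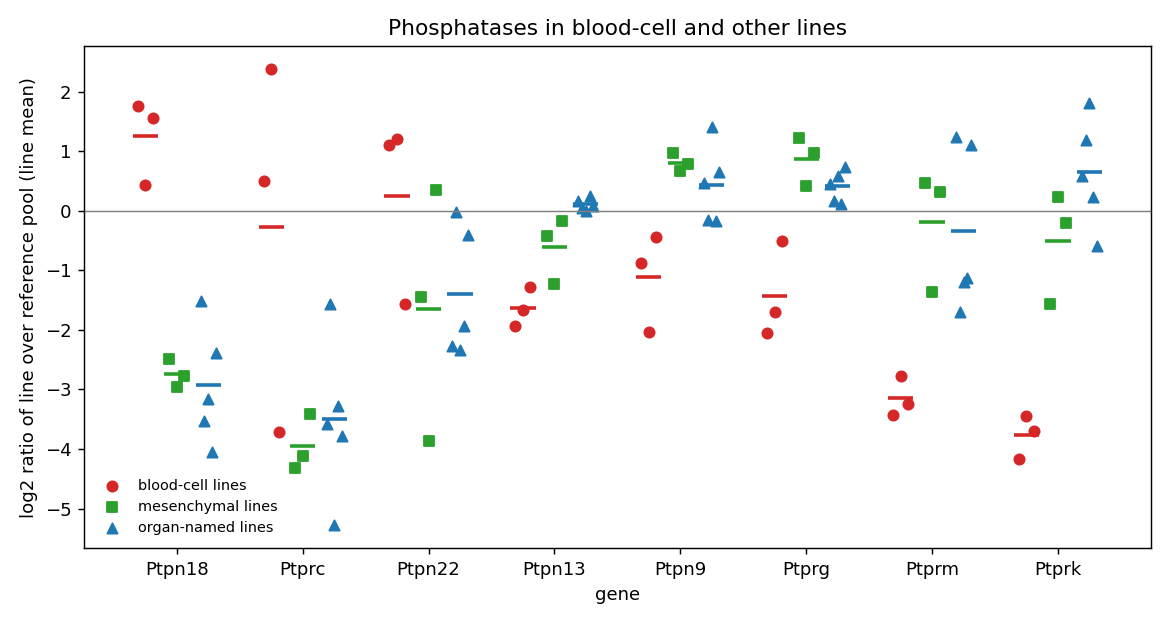
Log2 ratio of line over pool, 1 point per line (mean of its arrays), for 8 phosphatase genes, with the 3 blood-cell lines as circles, the 3 mesenchymal lines as squares and the 5 organ-named lines as triangles. Bars are group means. Blood-cell lines lie apart from all others for Ptpn18, Ptpn13 (narrowly), Ptpn9, Ptprg, Ptprm and Ptprk. Ptprc and Ptpn22, which were not called in this comparison, have the myeloma line inside the range of the other lines.

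No overlap between the line means of blood-cell and other lines was seen for 3 probes from above (8.11%, against 4.27% of all features) and 6 from below (16.2%, against 3.53%). Beside the 6 called genes these were Dusp13 and Ptpn1 from above and Ptp4a1 from below. Some gaps were narrow. The nearest line means were 0.292 (macrophage) and 0.286 (mammary tumor) for Ptpn1, and 0.193 and 0.15 in the same lines for Dusp13. They were -0.062 (T-cell lymphoma) and -0.056 (myoblast) for Ptp4a1, and -1.284 (myeloma) and -1.234 (embryo fibroblast) for Ptpn13. On mammary tumor array 1 Ptpn1 (0.681) and Dusp13 (0.704) lay above some blood-cell arrays. Dusp13, an atypical phosphatase, differed by 1.24 ± 0.35 (limma adjusted p = 0.0678). It was called with the image run in the fit (0.0462) and without mammary tumor array 1 (0.0394). Ptpn1 (PTP1B, which acts on the insulin receptor) differed by 0.75 ± 0.27 (adjusted p = 0.142) and Ptp4a1 by -0.57 ± 0.26 (adjusted p = 0.251). Mesenchymal lines (fibroblast, embryo fibroblast, myoblast) against the 5 organ-named lines gave 0 calls with limma among 39 tested phosphatase probes and 0.0% of 7497 features. At an unadjusted p under 0.05 there were 8 of 39 probes and 519 features (6.92%). The lowest p among them was that of the Ptprd probe 1337 (-1.30 ± 0.37, limma adjusted p = 0.694).

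Start-site sequence was set beside these patterns for some of the genes called higher in at least 1 blood-cell line. These were Ptpn18 (all 3 lines), Ptprc (T-cell lymphoma), and Ptpro and Dusp2 (macrophage), as given further on. Ptprv, Ptprr, Ptpn21, Ptpn4 and Ptpre were also called higher in 1 blood-cell line and are not shown. The 3 receptors called lower in the blood-cell lines together were added. The RefSeq promoter table of GRCm38.p6 held 34 of the 40 genes. The 150 bases before the outermost listed start are shown 5′ to 3′ on the gene's strand, with each AGGAAG or its reverse complement CTTCCT, the core of sites for ETS factors such as PU.1 of blood cells, in capitals. Those of the shown genes called higher lie at chr1:34459596-34459745 (plus strand), chr1:138175306-138175455 (minus strand), chr6:137252149-137252298 (plus strand) and chr2:127336009-127336158 (plus strand).
Ptpn18: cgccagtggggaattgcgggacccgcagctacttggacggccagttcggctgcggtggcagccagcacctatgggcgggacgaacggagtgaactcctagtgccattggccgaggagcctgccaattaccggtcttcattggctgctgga
Ptprc: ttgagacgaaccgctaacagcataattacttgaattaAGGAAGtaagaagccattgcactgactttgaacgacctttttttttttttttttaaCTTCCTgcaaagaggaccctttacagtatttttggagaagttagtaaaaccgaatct
Ptpro: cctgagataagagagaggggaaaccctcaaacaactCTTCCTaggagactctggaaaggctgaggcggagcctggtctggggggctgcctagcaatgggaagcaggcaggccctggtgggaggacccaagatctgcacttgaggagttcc
Dusp2: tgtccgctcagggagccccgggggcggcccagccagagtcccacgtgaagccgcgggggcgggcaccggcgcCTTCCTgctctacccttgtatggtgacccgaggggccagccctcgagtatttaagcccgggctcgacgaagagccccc

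Those of the receptors lie at chr10:28074670-28074819 (plus strand), chr17:67354460-67354609 (minus strand) and chr14:11553403-11553552 (plus strand).
Ptprk: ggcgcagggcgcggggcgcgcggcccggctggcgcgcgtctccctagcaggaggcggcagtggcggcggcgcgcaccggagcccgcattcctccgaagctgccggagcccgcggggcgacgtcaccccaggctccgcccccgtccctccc
Ptprm: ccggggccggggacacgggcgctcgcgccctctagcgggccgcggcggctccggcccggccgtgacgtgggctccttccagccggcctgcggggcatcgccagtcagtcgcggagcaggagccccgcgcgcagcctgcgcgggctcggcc
Ptprg: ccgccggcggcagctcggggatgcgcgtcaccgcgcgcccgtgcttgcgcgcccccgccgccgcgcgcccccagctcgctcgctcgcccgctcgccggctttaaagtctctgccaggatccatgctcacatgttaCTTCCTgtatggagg

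Over the 250 bases before the start AGGAAG was present on either strand in 10 of 34 phosphatase genes (29.4%) and in 29.5% of 32851 listed promoters. The phosphatase genes entered with their outermost start only. The listed promoters hold every start, several for some genes, so the units of these comparisons are unlike. The 10 were Dusp2, Dusp8, Ptpn14, Ptpn22, Ptpn3, Ptpn6, Ptprc, Ptprg, Ptprj and Ptpro. Ptpn18, the gene called in all 3 blood-cell lines, had none in this window. Ptprr, Ptpn21, Ptpn4 and Ptpre, called higher in the myeloma line but not shown, also had none, and Ptprv had no listed promoter. TGTGGT, a Runx-type core, was in 2 of 34 (5.88%, against 14%), and GAGGAAGT, which contains AGGAAG, and CCGGAAGT, another ETS-type site, were in none (against 2.44% and 2.88%). CpG was counted over the same 250 bases. Ptprk, Ptprm and Ptprg had 38, 37 and 31 CpG in 250 bases, Ptpn18 and Dusp2 19 each, and Ptprc and Ptpro 4 and 3. The median was 6 over all listed promoters and 24.5 over the outermost starts of the 34 phosphatase genes. Genes not called in the blood-cell comparison also had high counts, such as Ptp4a2 (46), Ptpn1 (41) and Ptpn21 (39). Among the genes called higher in a blood-cell line but not shown, Ptpn21 and Ptpn4 had 39 and 36 CpG and Ptpre and Ptprr 17 and 7.

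Each line was then compared, by limma over the 14 arrays, with the mean of the remaining 10 lines, each counted equally. Of 407 tests of phosphatase probes 19 were called (4.67%), 11 higher and 8 lower, against 1.89% of all tests. Of these, 16 fell in the 3 blood-cell lines. With the replicate number as a block there were 41 calls (20 higher and 21 lower), while the share of all tests called rose to 6.27%. Without mammary tumor array 1 or 2 there were 9 or 8 (0.779% and 0.71% of all tests), and without myeloma array 2 there were 12 (0.699%). None of the 19 changed sign in any setting. Of the lines outside the blood cells, embryo fibroblast, fibroblast and myoblast had 1 called probe each, against 2.21%, 1.23% and 0.795% of all features. There were 0 of 37 in the mammary tumor, testis, liver, kidney and skin lines, against 0.862%, 0.35%, 0.0135%, 0.0135% and 0.0%. At an unadjusted p under 0.05 in limma these 5 lines had 7, 5, 3, 11 and 1 of the 37 phosphatase probes, against 14.5%, 11.9%, 8.19%, 17.4% and 8.11% of all features. With the replicate block Ptprd (probe 5207) was called in mammary tumor, Ptpn18 in testis (-2.57, adjusted p = 0.0264) and Ptpre in kidney (-1.84, 0.0365), where 3.22%, 1.47% and 4.67% of all features were called. The block also took embryo fibroblast from 1 to 5 calls (against 12.6% of all features), adding Ptpn18, Ptpn22, Ptprb and Ptprv, all lower. Quantile normalization gave 5 calls in mammary tumor (Ptp4a2, Ptpn2, Ptpn22, Ptprd probe 5207 and Ptprm), against 4.42% of all features.

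In the T-cell lymphoma line 3 phosphatase probes were higher and 1 was lower (of 37, against 4.58% of all features called, 2.22% higher and 2.36% lower). Ptprc encodes CD45, the phosphatase of nucleated blood cells that activates Lck in T cells. Its log2 ratio was 2.39 in T-cell lymphoma, 0.50 in macrophage and -2.51 and -4.93 on the myeloma arrays. In the other lines it ran from -5.28 (kidney) to -1.56 (liver), so that the myeloma arrays lay inside the range of lines that are not blood cells. The T-cell lymphoma line differed from the mean of the others by 5.64 ± 0.79 (limma adjusted p = 0.0187, called in all 12 other settings). It held 69.3% of the summed Ptprc ratio and the macrophage line 18.8% (with the direction turned, kidney would hold the most, 27.9%).

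The macrophage difference of Ptprc was 3.57 ± 0.79 (adjusted p = 0.0624; 0.0417 with the replicate block). Over the blood-cell lines as a group the difference of 3.39 ± 0.99 did not pass (adjusted p = 0.0755). It became 5.11 without the myeloma line (adjusted p = 0.00455) and 3.79 without myeloma array 2 (0.0261). Within run 3 it was 7.06 and within run 4 it was 1.34. The group value thus rests on which blood-cell line is counted.

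Ptprv, a receptor-type gene of bone and gonad cells that the RefSeq table lists as a transcribed pseudogene, had log2 ratios of 1.14 in T-cell lymphoma and 0.72 in the myoblast line. Every other array lay below 0, from -3.76 (fibroblast array 1) to -0.22 (myeloma array 2). The T-cell lymphoma difference was 2.75 ± 0.49 (limma adjusted p = 0.0316), and it was not called in 6 of 12 other settings, among them without any 1 array of the mammary tumor or myeloma lines. The myoblast difference of 2.28 ± 0.49 had an adjusted p of 0.102 and was called with the replicate block (2.39 ± 0.31, adjusted p = 0.0142). Ptpn9 was lower in the T-cell lymphoma line by -2.37 ± 0.34 (adjusted p = 0.0197) and Ptpn18 higher by 2.38 ± 0.36 (0.0221). Without mammary tumor array 1 or 2 Ptprc alone was called there (against 1.75% and 1.46% of all features). With the replicate block 9 probes were called in this line (against 12.9% of all features), the further 5 being Ptpn22 (2.34), Ptpn12 (-2.03), Ptpn21 (-1.62), Ptprs (-1.52) and Ptprk (-2.90).

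In the macrophage line 3 probes were higher and 1 was lower (of 37, against 4.07% of all features, 1.94% higher and 2.13% lower). Ptpro, a single-domain receptor known from kidney podocytes and, in a short form, from macrophages, had a log2 ratio of 3.07 there. All other arrays were below 0, from -4.04 (embryo fibroblast) to -0.33 (mammary tumor array 1). The difference was 4.28 ± 0.48 (19.5-fold, limma adjusted p = 0.0104), called in all 12 other settings. A gene made by a single line of an equal pool of 11 would stand at 3.46, and the macrophage line held 62.8% of the summed Ptpro ratio (with the direction turned, embryo fibroblast would hold the most, 48.9%). The kidney line was at -0.91. The low embryo fibroblast value gave a call as well (-3.54 ± 0.48, adjusted p = 0.0230), on an array where the median difference of all features was -0.42, and the call ended without mammary tumor array 1 (adjusted p = 0.0608) or 2 (0.0577).

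Dusp2 (PAC-1), an inducible nuclear MAP kinase phosphatase of activated immune cells, was at 1.35 in the macrophage line and 0.34 in the liver line. The T-cell lymphoma array (-0.44) and the myeloma arrays (-0.11 and -0.40) lay among the remaining lines, which reached down to -1.79 and -1.89 on the fibroblast arrays. It was higher in the macrophage line (1.95 ± 0.35, limma adjusted p = 0.0328) and lower in the fibroblast line (-1.56 ± 0.26, adjusted p = 0.0484). The first call ended in 6 and the second in 8 of 12 other settings, both without any 1 array of the mammary tumor or myeloma lines and the second also without either fibroblast array. Ptpn18 (3.86 ± 0.36, 0.00826) and Ptprk (-3.62 ± 0.72, 0.0465) completed the macrophage calls. Ptprk was not called without either fibroblast or either mammary tumor array. Without mammary tumor array 1 or 2 Ptpn18 and Ptpro alone were called (against 1.96% and 1.81% of all features). With the replicate block there were 7 calls in this line (against 9.38% of all features), the further 3 being Ptprc (3.50), Ptpn22 (2.24) and Ptprm (-2.55).

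**Figure D3:**
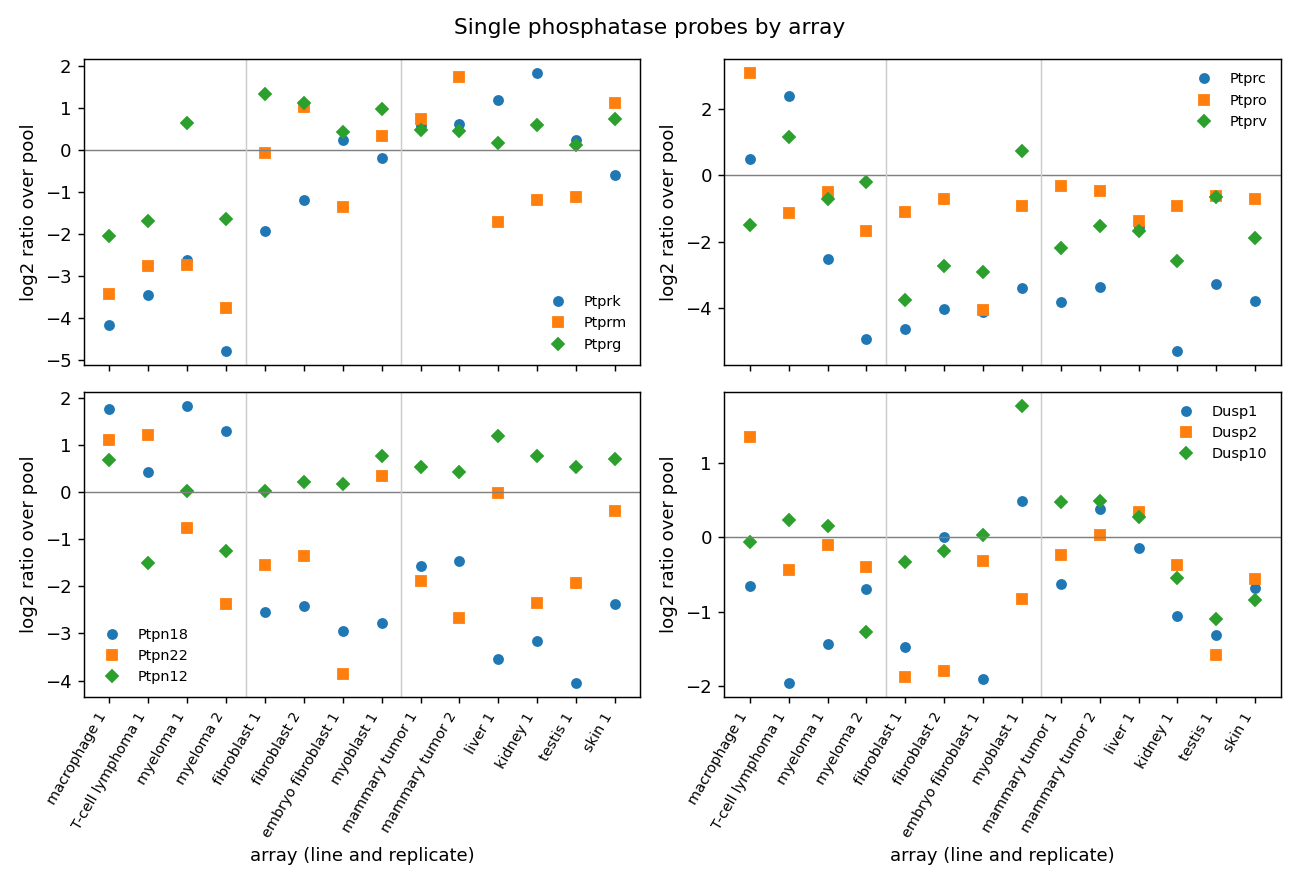
Log2 ratio of line over pool on each of 14 arrays for adhesion-type receptors (top left), Ptprc, Ptpro and Ptprv (top right), PEST-type phosphatases (bottom left) and MAP kinase phosphatases (bottom right). Grey vertical lines part the blood-cell, mesenchymal and organ-named lines. Ptprc peaks in the T-cell lymphoma line (2.39) and Ptpro in the macrophage line (3.07).

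In the myeloma line 5 probes were higher and 3 were lower (of 37, against 6.7% of all features, 3.29% higher and 3.41% lower), the most of any line. Beside Ptpn18 (3.63 ± 0.27, limma adjusted p = 0.00156) the higher genes were Ptprr, Ptpn21, Ptpn4 and Ptpre. Ptprr, which binds MAP kinases, was at 1.77 and 1.98 on the myeloma arrays and at most 0.58 (mammary tumor array 1) elsewhere (2.35 ± 0.49, adjusted p = 0.0381). Ptpn21, a FERM-domain phosphatase, was at 1.65 and 1.67, against at most 0.80 (kidney) elsewhere and -1.45 in the T-cell lymphoma line (1.77 ± 0.26, adjusted p = 0.0113). Of the other FERM-domain genes Ptpn3 (-1.16, adjusted p = 0.311) and Ptpn13 (-0.80, 0.296) did not pass. Ptpn4 was higher (1.33 ± 0.26, 0.0323), and Ptpn14 was lower (-1.96 ± 0.30, 0.0135), at -2.23 and -1.72 against at lowest -0.77 (fibroblast array 1) elsewhere. Ptpre was higher by 1.20 ± 0.25 (0.0400), while its log2 ratios of 0.71 and 0.81 were close to those of the mammary tumor arrays (0.69 and 0.70).

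Ptprk (-3.11 ± 0.53, limma adjusted p = 0.0197) and Ptprm (-2.40 ± 0.45, 0.0267) were the other lower genes of the myeloma line. Most of the calls in this line ended when 1 of its arrays was left out, which also lowers the residual degrees of freedom from 3 to 2. Without myeloma array 2 Ptpn18 alone was called (against 0.555% of all features), and without array 1 Ptpn18, Ptprk and Ptpn3 (against 3.02%). The myeloma arrays share an image run, so their spread holds no difference between runs. Probes of the phosphatase genes differed between them by up to 4.25, for the Ptprd probe 1337 (-0.38 and -4.62). With the replicate block 11 were called (against 15.4% of all features), the further 3 being Dusp13 (1.58), Ptprb (1.49) and Ptpn13 (-1.12).

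The LAR-class receptors Ptprd, Ptprf and Ptprs organise synapses and cell-matrix contacts. The Ptprd probes were above the pool in the mammary tumor line. Probe 1342 was at 2.42 and 1.37 on the mammary tumor arrays, probe 5207 at 1.985 and 1.61, and probe 1337 at 1.03 and 0.42. In the testis line they stood at 1.42, 1.31 and 0.34 in the same order, and in the kidney line at 0.67, 0.41 and 0.02. All 3 probes thus placed mammary tumor, testis and kidney at or above the pool and the fibroblast and embryo fibroblast arrays below it.

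In the myoblast line the Ptprd probes disagreed, with 0.69 for probe 1342, -1.48 for probe 1337 and -3.96 for probe 5207. Probe 5207 was called lower there (-3.79 ± 0.575, limma adjusted p = 0.0470), a call that ended in 5 of 12 other settings, among them without any 1 array of the mammary tumor or myeloma lines (adjusted p from 0.0745 to 0.0923). Its mammary tumor difference of 2.54 ± 0.42 (adjusted p = 0.0539) was called with the replicate block (2.90 ± 0.28, 0.0127), with quantile normalization, with the robust trended prior and without either fibroblast array. Probes 1337 and 1342 were not tested by line, since they lack a value in the macrophage line or in the liver and skin lines. The probes come from different GenBank entries, and the platform table does not give the stretch of the transcript that each covers.

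**Figure D4:**
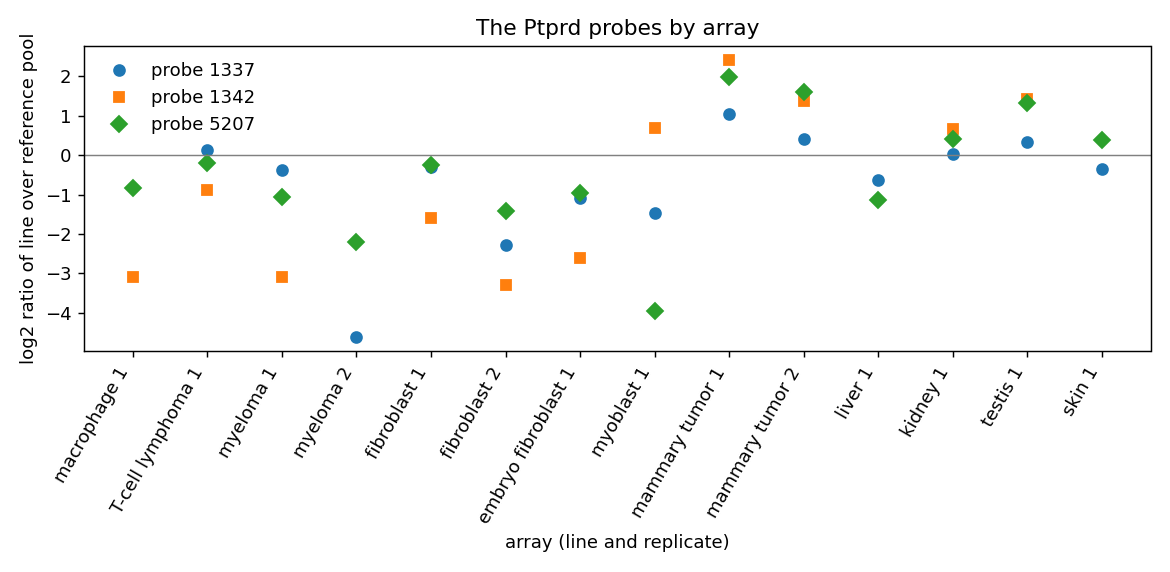
Log2 ratio of line over pool on each array for the 3 Ptprd probes. An array without a symbol for a probe has no value. All 3 probes are above 0 on the mammary tumor, testis and kidney arrays, while in the myoblast line they run from -3.96 to 0.69.

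Ptprf (LAR itself) ran from -2.24 in the macrophage line and on fibroblast array 1 to 0.76 in the testis line, and it passed no test (blood-cell difference -1.30 ± 0.49, limma adjusted p = 0.160). Ptprs was at -2.11 in T-cell lymphoma, -1.67 in macrophage and -1.39 and -0.13 on the myeloma arrays, and highest in the myoblast line (0.84). Its blood-cell difference of -1.33 ± 0.41 did not pass (adjusted p = 0.0914). It was called without myeloma array 2 (adjusted p = 0.0373). With the replicate block its T-cell lymphoma (-1.52) and myoblast (1.72 ± 0.31, adjusted p = 0.0348) differences were called.

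The SH2-domain genes peaked in different lines. Ptpn6 (SHP-1, an inhibitory phosphatase of blood cells) was at 1.87 in macrophage, 0.22 in T-cell lymphoma and 0.08 and -0.18 on the myeloma arrays, against -1.91 (fibroblast array 1) to 0.24 (fibroblast array 2) elsewhere. The T-cell lymphoma and myeloma arrays thus overlapped lines that are not blood cells. Lacking a myoblast value, it was tested only where 2 lines per group sufficed, and did not pass (1.24 ± 0.46, limma adjusted p = 0.161). Ptpn11 (SHP-2, which relays growth factor signals) was highest in the kidney line (1.77, against at most 0.55 on fibroblast array 1) and lowest in the embryo fibroblast line (-1.59). The kidney difference of 2.35 ± 0.51 did not pass (adjusted p = 0.117), in a line where 0.0135% of all features were called.

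Among the PEST-type genes Ptpn22, a brake on T-cell receptor signals, was at 1.21 in T-cell lymphoma and 1.11 in macrophage cells. It was at -0.76 and -2.37 on the myeloma arrays, and among the other lines it ran from -3.86 (embryo fibroblast) to 0.34 (myoblast). The blood-cell difference of 1.74 ± 0.83 did not pass (95% interval from -0.03 to 3.52, limma adjusted p = 0.260). Ptpn12, which acts on focal adhesion proteins, stood between 0.01 and 1.18 on 12 arrays and at -1.50 in the T-cell lymphoma line and -1.25 on myeloma array 2. Of the 3 PEST-type genes Ptpn18 alone was called in the comparison of blood-cell with other lines.

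Some members had a range over lines below the median of all features, with 1.70 for Ptpn2, 1.28 for Ptpn1 and 1.04 for Ptpn20 against 2.04. Over single arrays Ptpn2 ran from -0.75 (mammary tumor array 2) to 1.05 (kidney), Ptpn1 from -0.68 (testis) to 0.93 (myeloma array 1) and Ptpn20 from -0.62 (testis) to 0.42 (skin). Ptp4a1, Ptp4a2 and Ptp4a3, the small prenylated PRL phosphatases linked to growth, had ranges over lines of 1.20, 1.71 and 1.71. Ptp4a2 was low on the mammary tumor arrays (-0.82 and -0.88) and high on myeloma array 2 (1.12), and Ptp4a3 was highest on the myeloma arrays (0.84 and 0.73). Their blood-cell differences were -0.57 (95% interval from -1.13 to -0.00), 0.24 (-0.69 to 1.18) and 0.24 (-0.53 to 1.003).

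Of the MAP kinase phosphatases Dusp1 (MKP-1, an early response gene) was above the pool in the myoblast line (0.48), on mammary tumor array 2 (0.38) and on fibroblast array 2 (0.01), and lowest in the T-cell lymphoma (-1.96) and embryo fibroblast (-1.91) lines. Its fibroblast arrays differed by more than many lines did (-1.47 and 0.01). Dusp10, which prefers the stress kinases JNK and p38, was highest in the myoblast line (1.76, against at most 0.48 elsewhere), a difference of 2.00 ± 0.52 (limma adjusted p = 0.143). Dusp8 and Dusp14 had ranges over lines of 1.37 and 0.89. The Dusp1 myoblast difference (1.44 ± 0.64, adjusted p = 0.373) was called with the replicate block (1.60 ± 0.33, 0.0462). Dusp2 had the only Dusp calls in the fits as described. Dusp13 was called in other settings, with the block in the myeloma line and in the settings of the blood-cell comparison given above.

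Members with empty values could only be described or tested over fewer lines. Ptprn2, a secretory granule protein of neuroendocrine cells, was at 1.91 in the T-cell lymphoma line and between -2.11 (fibroblast array 2) and 0.77 (skin) elsewhere, with no value for the macrophage line and myeloma array 2. Ptprj (CD148) was highest in the T-cell lymphoma line (0.40) and lowest on myeloma array 1 (-1.75), with no value for liver and myeloma array 2. Neither passed the test over blood-cell and other lines (limma adjusted p = 0.533 and 0.719). Ptprb, an endothelial receptor, ran from -1.31 (fibroblast array 2) to 1.65 (myeloma array 1), and its fibroblast arrays lay at 1.20 and -1.31. Ptpra, a widely expressed activator of Src, was highest in the macrophage line (0.59) and lowest in the embryo fibroblast line (-1.96). Dusp14, Dusp8, Ptpn20, Ptpn5, Ptpn3, Ptpru and Ptpra were among the 23 of 39 probes tested in at least 1 comparison that were called in none of the fits as described (Ptpn3 was called in 1 other setting, above).

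Partners of these phosphatases were looked at through written lists. Of 23 probes for receptors and adaptors of tyrosine phosphatases 6 were higher and none lower in the macrophage line. There were 5 higher and 0 lower in the T-cell lymphoma line and 2 higher and 0 lower in the myeloma line. Over all features 1.94%, 2.22% and 3.29% were higher and 2.13%, 2.36% and 3.41% lower in these lines. No list was tested against such shares. In the macrophage line the higher genes included Blnk (3.98), Cd72 (3.96), an inhibitory receptor that recruits Ptpn6, Lilrb4a (3.96) and Lcp2 (3.40). The T-cell lymphoma line had Lat (4.84), Dok2 (3.87), Lcp2 (3.31) and Pdcd1 (3.14), which encodes the receptor PD-1, and the myeloma line Blnk (5.31) and Pecam1 (3.67). Blnk was also called in the fibroblast line, where it was lower (-2.75). Lcp2 (SLP-76), an adaptor downstream of Zap70 and Syk, was the 1 higher gene of this list in the blood-cell lines together (2.69 ± 0.64, limma adjusted p = 0.0379). In that comparison 0.997% of all features were higher. The median difference of the list there was 0.53, against 0.11 over all features.

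Of 25 probes for cytoplasmic tyrosine kinases 0 were higher and 1 was lower in the blood-cell lines together, Yes1 (-1.25 ± 0.29, limma adjusted p = 0.0322), a Src-family kinase of adherent cells. Of all features 0.997% were higher and 2.22% lower there. The myeloma line had 3 higher, Btk (3.09), Syk (2.30) and Csk (1.63), which encodes the kinase that CD45 opposes, and 1 lower, Fes (-1.86). The T-cell lymphoma line had Zap70 (4.22) and Ptk6 (1.89) higher and Fer (-3.21) lower. Over all features 3.29% and 2.22% were higher and 3.41% and 2.36% lower in the myeloma and T-cell lymphoma lines. In the macrophage line 0 of 25 were called in either direction, against 4.07% of all features. Syk was also called in the embryo fibroblast line, where it was lower (-2.84). Of 25 probes for MAP kinases and their activating kinases 1 was higher in the blood-cell lines, Map3k1 (1.95 ± 0.39, adjusted p = 0.0168), and 0 lower. The shares of all features were again 0.997% and 2.22%. Mapk7 (ERK5) was lower in the macrophage line (-2.20). Mapk12 was higher in the myeloma line (1.51) and lower in the fibroblast line (-1.59).

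Of 24 probes for ERK-induced early genes and Sprouty-type inhibitors 0 were called in the blood-cell lines together, against 3.22% of all features. The median difference of the list there was -0.47, against 0.11 over all features. Spry1, an inhibitor of receptor tyrosine kinase signals, was lower in the macrophage (-2.06) and myeloma (-1.47) lines and higher in the testis line (2.62). Fosl1 was lower in the macrophage (-2.47) and T-cell lymphoma (-2.40) lines. Myc was lower in the macrophage line (-2.45), Klf6 lower in the myeloma line (-2.77), and the ETS genes Etv1 (2.73, macrophage) and Etv5 (1.86, T-cell lymphoma) were higher. Outside the blood cells Etv1 was higher in the fibroblast line (2.13) and Etv5 lower in the mammary tumor line (-1.87). Of 12 probes for other cysteine-based phosphatases 1 was lower in the blood-cell lines, Mtmr9 (-1.01 ± 0.25, limma adjusted p = 0.0462), and 1 higher in the myeloma line, Epm2a (1.22), which encodes laforin. Of all features 2.22% were lower in the blood-cell lines and 3.29% higher in the myeloma line.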

How the data were processed

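The authors deposited 1 table with a ratio for each spot of each array, taken here as log2 of line over pool. The sources used here do not give background correction, normalization, log base or direction. On that reading the mean unlogged ratio over lines had a median of 1.003 over all features, against 1.199 with the sign turned, 1.072 for natural logs and 1.87 for log10. An equal mix of the lines would give 1, so base 2 and this direction were assumed. Whether arrays were centred is unknown. Dyes were never exchanged. Of 7680 probes the 80 Gapdh spots were averaged, and 423 cells were empty. Symbols came from the platform table (6835 probes with 1 symbol, 4 with several, 841 unlisted). Of these, 6809 matched a RefSeq table of GRCm38.p6 by gene identifier.

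Tests used limma 3.58.1 in R 4.3.3 (lmFit, eBayes, two-sided, Benjamini-Hochberg over all tested features, called under 0.05), and figures matplotlib 3.10.9. Line comparisons had 3 residual degrees of freedom from the lines with 2 arrays, so single arrays were taken to have the spread of the paired ones. Lineage comparisons used line means. Errors after ± are standard errors of the fit, and differences are on the log2 scale. The number of arrays limits the precision.

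The titles number the arrays of 3 lines. Differences of array 1 minus array 2 correlated between lines over 7401 features (r = 0.541, 0.330 and 0.379), so the numbers were taken to pair the arrays on the basis of the data alone, since the labels name no shared batch. The blocked fit has 2 residual degrees of freedom. Lines with 1 array were coded as number 1, with the first arrays of the pairs, although these arrays lie in different image runs. Calls with the replicate block rest on that coding.

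On simulated data with 7423 features the T-cell lymphoma comparison recovered 80% of log2 changes of 2 and 18% of changes of 1. The blood-cell comparison recovered 100% and 32%, and the mesenchymal comparison 94% and 16%. Every simulated feature had the same spread, a median taken from the data, so recovery in the data may differ by feature. Named were all called probes, the 10 widest over lines and a written list of well-known members. Members, gene lists and lineages were chosen with earlier results of these data known. Other settings were array centring, quantile normalization, complete features, a robust trended prior, the replicate block, image runs as a block, the line as a random block, and leaving out arrays or blood-cell or mesenchymal lines. Testing features with 2 or more lines per group was added after the data were seen.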

Additional observations from a re-analysis of the deposited data

How the results depend on the processing

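The count of phosphatase probes called over the 11 line comparisons was 19 (1.89% of all tests called) and became 41 with the replicate block (6.27% of all tests). It ran from 8 to 19 when 1 array of a line with 2 was left out, lowest without mammary tumor array 2, while the share of all tests called ran from 0.699% to 2.9%. With each array centred, quantile normalization, complete features, the robust trended prior or the image run as a block it stayed between 16 and 21. In these settings 1.44% to 2.29% of all tests were called. A steady count did not mean the same probes. Quantile normalization kept 5 of 8 calls in myeloma, 2 of 4 in T-cell lymphoma and 2 of 4 in macrophage, where it added Ptprc. It also called 5 probes in mammary tumor, Ptprv in place of Dusp2 in fibroblast, and Ptpn18 in testis. The 6 calls of blood-cell against other lines (3.22% of all features called) became 3 without the T-cell lymphoma line (Ptpn18, Ptprg and Ptprk, against 1.56%). They lay between 4 and 7 in the other 16 settings, where 1.5% to 4.63% of all features were called. The 0 calls of mesenchymal against organ-named lines stayed 0 in all settings run (leaving out a myeloma array does not apply there). Of 25 single calls named in the text 6 were kept in every setting, and none changed sign. These 6 were Ptpn18 (macrophage, myeloma and blood-cell lines together), Ptprk (blood-cell lines), Ptprc (T-cell lymphoma) and Ptpro (macrophage). Why calls were lost or gained was not tested. The replicate block added calls and ended none of the 25. The number of arrays limits what could be called, though the simulation did not vary it. In simulated data, where every feature had the same spread, 18% of log2 changes of 1 were recovered for the T-cell lymphoma line.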

Other observations

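Agreement between the arrays of a line was looked at for the phosphatase probes themselves. Pearson's r across probes, which are no independent replicates, was 0.840 for the mammary tumor pair (42 probes), 0.707 for the myeloma pair (39 probes) and 0.566 for the fibroblast pair (42 probes). The widest disagreement of each pair was that of the Ptprd probe 1337 between the myeloma arrays (4.25), of Ptprb between the fibroblast arrays (2.51) and of Ptprf between the mammary tumor arrays (1.33).

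Ptprv was the single phosphatase probe above the pool in the T-cell lymphoma and myoblast lines and below it on every other array.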
